A study of Homo sapiens with 7 samples.

Results

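Hi-C contact maps of DLD-1 cells that had lost both DNMT1 and DNMT3B were compared with maps of cells that had lost DNMT1 alone, each after 10 d of auxin. DLD-1 is an established human colorectal adenocarcinoma line. The libraries were chosen by their titles and are 2 of the 7 in the series, 1 library per group. The first group carried the genotype labelled DNMT1-AID;DNMT3b -/- (knockout cells below), and the second the genotype labelled DNMT1-AID (DNMT1-AID cells below). The AID tag is a degron: auxin (indole-3-acetic acid), given to both groups for 10 d, leads to degradation of the tagged protein. Every one of the 7 libraries carries the degron, and with no auxin-treated cells lacking it, auxin itself and DNMT1 loss cannot be told apart. Whether the knockout line is a single clone is not given in the sources used here. Libraries of the same genotypes after 4 d of auxin and without auxin serve for comparison at the other times, with the caveat that the untreated knockout library is knockout by its title while its genotype label reads DNMT1-AID.

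DNMT1 copies DNA methylation onto the new strand after replication, and DNMT3B can methylate DNA that was unmethylated. Inherited loss of DNMT3B function in humans causes ICF syndrome, in which the satellite DNA beside the centromeres of chromosomes 1, 9 and 16 loses methylation and those chromosomes decondense and rearrange. Hi-C ligates pieces of DNA that were close in the nucleus and counts the ligated pairs. Contacts within a chromosome (cis) become rarer with separation, contacts between chromosomes (trans) tend to join chromosomes of like gene density, and the centromere divides the cis contacts into those within an arm and those between arms.

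The knockout library held 132768865 contacts and the DNMT1-AID library 158423127, counting cis contacts from a separation of 100 kb on. Each group held 1 library, so no difference was tested, and the intervals below are 95% exact binomial (Clopper-Pearson) intervals that cover counting error only. Counts of arms, chromosomes or pairs describe these libraries and are not replicates. Chromosome 8 had 1.46-fold the contact coverage in knockout cells, on both arms (at least 1.43-fold the counts within each), while the other chromosomes lay between 0.981-fold and 1.06-fold. The main summaries were therefore computed also without chromosome 8. Being sums over arms and chromosomes, the tables give no check of the DNMT3B deletion or of DNMT1 degradation.

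Knockout cells made more of their contacts between chromosomes. Trans contacts were 29.2% of all contacts in knockout cells (interval 29.21% to 29.23%) and 26.2% in DNMT1-AID cells (26.22% to 26.24%), 1.11-fold and a log2 ratio of 0.16. The difference was far larger than counting error, but its size relative to the spread between cultures is unknown. Without chromosome 8 the shares were 27.9% in knockout cells and 25.3% in DNMT1-AID cells, a log2 ratio of 0.14.

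The share was higher in knockout cells on each of the 23 chromosomes, with a median log2 ratio of 0.12. Here a chromosome's share is its trans contacts over all contacts it takes part in. By a threshold of 0.1 on the log2 scale, 17 of 23 chromosomes (73.9%) were higher, or 13 of 22 once contacts with chromosome 8 were left out. Chromosome 6 had the largest difference, with 42.6% trans contacts in knockout cells and 38.0% in DNMT1-AID cells (log2 ratio 0.16). It was followed by 7, 10, 18 and 20, which differ from each other in size and gene content. Chromosome 14 had the smallest, with 48.3% in knockout cells and 46.2% in DNMT1-AID cells (log2 ratio 0.065), followed by 19, X, 22 and 15. On chromosome 19, the most gene-dense, the shares were 56.9% in knockout cells and 53.9% in DNMT1-AID cells. Over the 21 chromosomes with bins clustered by the authors, the log2 ratio was compared with the share of clustered bins named as A compartment. Those shares come from the untreated DNMT1-AID library. The Pearson correlation was -0.54 (Spearman -0.42), or -0.48 (Spearman -0.46) over 20 chromosomes without chromosome 8. All chromosomes come from the same 2 libraries, and these correlations are a description.

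**Figure D1:**
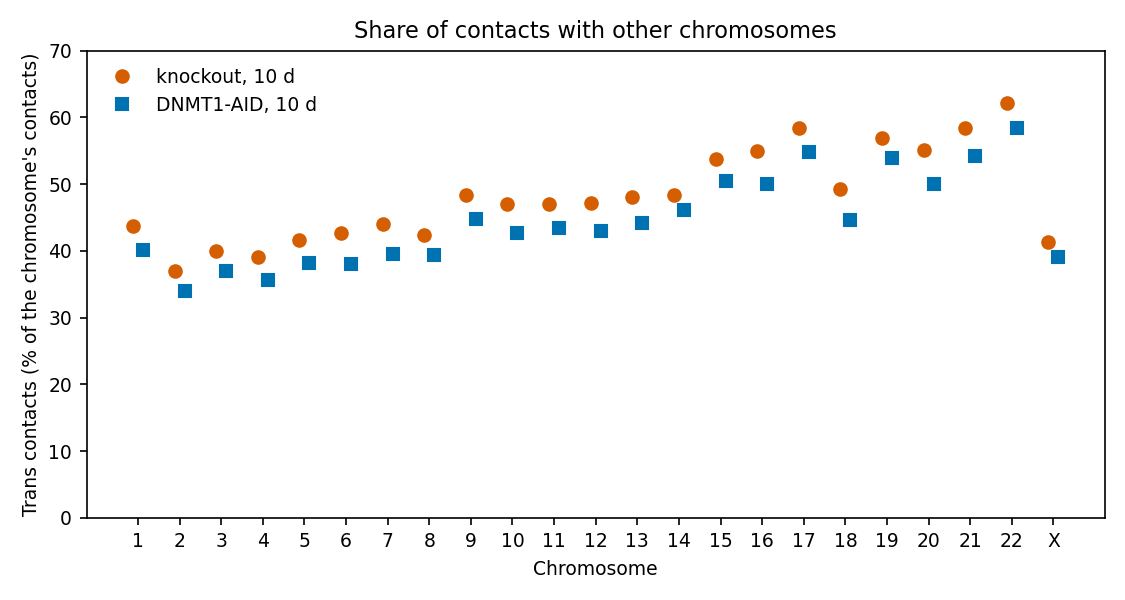
Trans contacts as a percentage of all contacts a chromosome takes part in (vertical axis), for chromosomes 1 to 22 and X; circles are knockout cells and squares DNMT1-AID cells, both after 10 d of auxin, 1 library each. The circle lies above the square on each of the 23 chromosomes.

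Within arms, the difference between the libraries changed sign with separation 3 times. Shares are percentages of the contacts within arms from 100 kb on, so a higher share at one separation lowers the others. At 0.1 to 0.5 Mb knockout cells held 43.6% of these contacts and DNMT1-AID cells 44.6%, a log2 ratio of -0.032. At 1 to 2 Mb knockout cells held 9.76% and DNMT1-AID cells 8.96%, a log2 ratio of 0.12. These are distances at and just beyond the size of large topologically associating domains. At 10 to 20 Mb knockout cells held 6.61% and DNMT1-AID cells 7.56%, a log2 ratio of -0.19. At 50 Mb and over, separations that only the longer arms span, knockout cells held 2.26% (interval 2.25% to 2.26%) and DNMT1-AID cells 1.58% (1.58% to 1.58%), 1.43-fold and a log2 ratio of 0.51.

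These opposite signs nearly cancel in the share at 10 Mb and over, which was 16.5% in knockout cells and 16.9% in DNMT1-AID cells (log2 ratio -0.029). In steps of 10 per decade, 18 of 31 steps were higher in knockout cells. The sign turned between the steps from 0.25 and 0.3 Mb, again between those from 3.15 and 4 Mb, and again between those from 25.1 and 31.6 Mb. The lowest step began at 12.6 Mb, with a log2 ratio of -0.20, and the highest was the last, from 125.9 Mb, with 0.98. Chromosome 8 did not move these turns: without it they fell at the same steps and the highest was 1.01. With balanced contact per bin pair in place of count shares, the turns fell at 0.5 to 0.65 Mb, 2 to 2.5 Mb and 31.6 to 39.8 Mb.

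**Figure D2:**
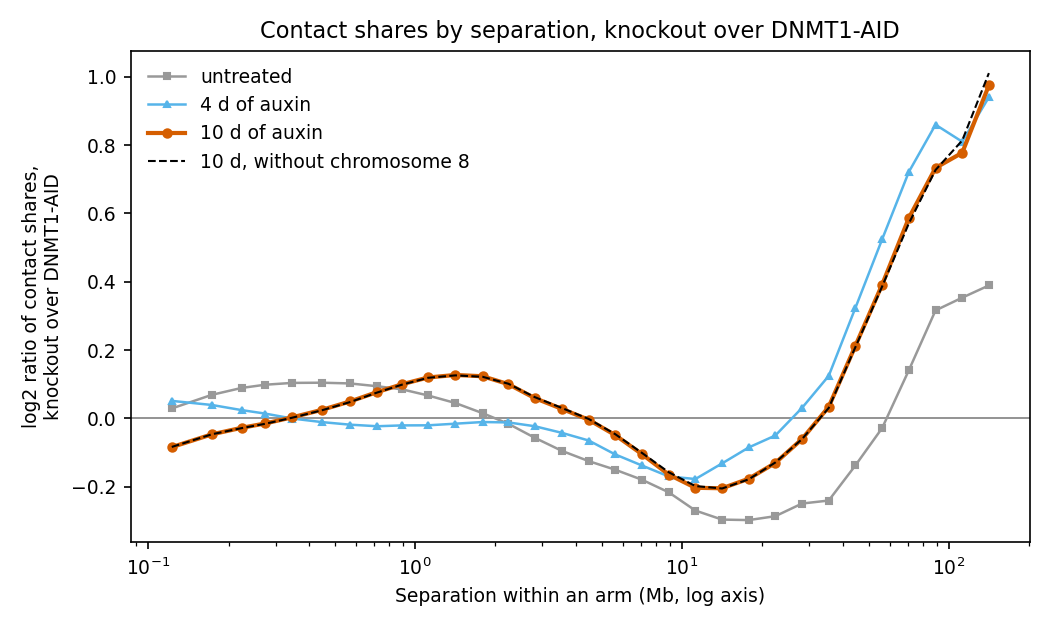
Log2 ratio of the share of contacts within arms (vertical axis), knockout over DNMT1-AID cells, against separation on a log axis in Mb. Each line compares 1 knockout with 1 DNMT1-AID library, without auxin, after 4 d and after 10 d, and the dashed line leaves out chromosome 8. The 10 d line lies above 0 near 1 Mb, below 0 near 10 Mb and reaches 0.98 at the longest separations.

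The arms mostly followed the pooled curve. At 1 to 2 Mb the share was higher in knockout cells in 41 of 41 arms, 33 of them by 0.1 or more, and at 10 to 20 Mb it was lower in 39 of 41 arms, 35 of them by 0.1 or more. Over all arms and windows together, 28.0% of values were higher and 21.5% lower by that margin, and 54.4% were higher by any. At 50 Mb and over, 23 of 23 arms with at least 1000 counts in both libraries were higher, with log2 ratios between 0.054 on Xq and 0.88 on 9q. Without chromosome 8 the counts were 39 of 39 arms higher at 1 to 2 Mb, 37 of 39 lower at 10 to 20 Mb and 22 of 22 higher at 50 Mb and over.

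The difference at 10 to 20 Mb varied from arm to arm, with a median log2 ratio of -0.20 and an SD over arms of 0.12. The short arm of chromosome 10 lay lowest, with 5.30% of its contacts at this separation in knockout cells and 7.05% in DNMT1-AID cells (log2 ratio -0.41). It was followed by 16p (4.94% in knockout cells and 6.51% in DNMT1-AID cells), 5p (6.77% in knockout cells and 8.83% in DNMT1-AID cells) and 9p (7.19% in knockout cells and 8.95% in DNMT1-AID cells). These lowest 4 are all short arms, though 6p, also a short arm, was at -0.091. Both arms of chromosome 19 lay the other way: 19q had 4.89% in knockout cells and 4.17% in DNMT1-AID cells (log2 ratio 0.23), and 19p had 3.18% in knockout cells and 2.99% in DNMT1-AID cells (0.088). Over arms the log2 ratio at 10 to 20 Mb had a Pearson correlation of 0.64 with genes per Mb (n = 41) and a Spearman correlation of 0.41. With arm length the correlations were 0.026 and 0.13. The points share the 2 libraries and their base composition.

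Around 20 to 50 Mb the arms disagreed, with 14 of 38 higher. The long arm of chromosome 15 had 7.42% of its contacts there in knockout cells and 6.21% in DNMT1-AID cells (log2 ratio 0.26). The short arm of chromosome 5 had 4.52% in knockout cells and 5.57% in DNMT1-AID cells (-0.30). By the share at 10 Mb and over, 5p was also the lowest arm, with 11.3% in knockout cells and 14.4% in DNMT1-AID cells (-0.35), and 19 of 41 arms (46.3%) were lower by 0.1 or more against 2 (4.88%) that were higher. The short arm of chromosome 5 had in turn the largest excess under 1 Mb, with 60.2% in knockout cells and 56.7% in DNMT1-AID cells (0.086). Over all arms the share under 1 Mb was 58.2% in knockout cells and 58.5% in DNMT1-AID cells, with 21 of 41 arms (51.2%) higher and no arm at a log2 ratio of 0.1 either way.

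**Figure D3:**
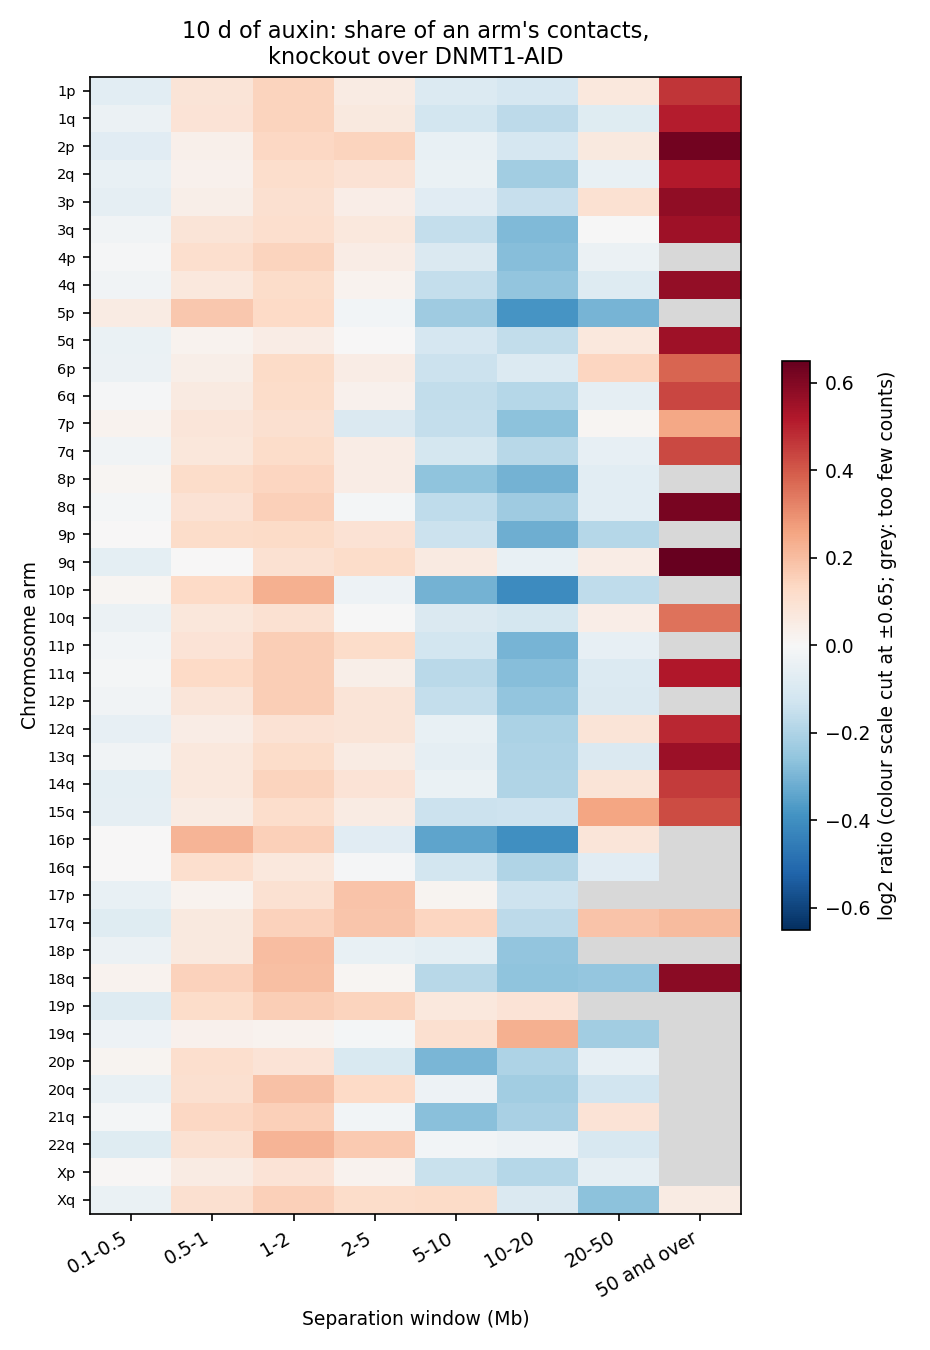
Log2 ratio of the share of an arm's contacts in each separation window, knockout over DNMT1-AID cells after 10 d of auxin, for 41 arms (rows) and 8 windows in Mb (columns). Red is higher and blue lower in knockout cells, and grey marks windows with fewer than 1000 counts in either library; the column of 50 Mb and over is red in the 23 arms it holds, and that of 10 to 20 Mb is blue in 39 of 41 arms, with 19p and 19q red.

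The decay of contact between 0.5 and 5 Mb, as the slope of log contact on log separation, was -1.41 in knockout cells and -1.38 in DNMT1-AID cells. It was steeper in knockout cells in 30 of 41 arms, by most on 16p (difference -0.14), 10p and 20p, and shallower by most on 17p (0.061), 9q and 19p.

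Relative to trans contact, cis contact was lower in knockout cells at all but the longest separations. Within arms, 5 of 31 steps were higher, and the sign turned once, between the steps from 39.8 and 50.1 Mb. On whole chromosomes the mean balanced contact per bin pair at 1 to 2 Mb was 306 times the mean trans contact in knockout cells and 324 times in DNMT1-AID cells. That log2 ratio of -0.084 (-0.056 without chromosome 8) is opposite in sign to the difference in count shares at 1 to 2 Mb. At 10 to 20 Mb it was 25.6 times the mean trans contact in knockout cells and 34.0 times in DNMT1-AID cells, a log2 ratio of -0.41 (-0.38 without chromosome 8), and it was lower in knockout cells on 23 of 23 chromosomes. Chromosome 8 lay lowest (-0.75), followed by 16 (-0.53), and chromosome 19 highest (-0.012). The coverage of chromosome 8 was 1.46-fold, and its part in the balanced ratios of that chromosome was not tested. At 50 to 100 Mb the values were 5.99 times in knockout cells and 5.45 times in DNMT1-AID cells (log2 ratio 0.14). Without chromosome 8 the log2 ratio was 0.17. Of 21 chromosomes with contacts at 50 Mb and over, 17 were higher in knockout cells, by most on 19 (0.55) and 13 (0.35). The other 4 were 20 (-0.32), 16 (-0.14), 8 (-0.14) and 6 (-0.010). The longer arms of 19 and 20 span 32.8 Mb and 36.2 Mb, so the values of these chromosomes hold only contacts between arms.

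At equal separation, contact between the arms of a chromosome was lower relative to contact within arms in knockout cells. The inter-arm ratio is the balanced contact between arms over that within arms at the same separation, between 20 and 50 Mb, on the 18 chromosomes with enough bin pairs. It was 0.705 in knockout cells and 0.790 in DNMT1-AID cells, a log2 ratio of -0.16, or -0.17 without chromosome 8. Over all separations, by contrast, contacts between arms were a larger share of the cis counts in knockout cells, with 5.45% in knockout cells and 5.16% in DNMT1-AID cells (log2 ratio 0.079, or 0.073 without chromosome 8). By the ratio at equal separation, 14 of 18 chromosomes were lower in knockout cells, 11 of them by 0.1 or more (61.1%), and 3 were higher by that margin (16.7%).

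With separations matched in this range, the lowest 3 of the 18 were the satellite chromosomes 16, 1 and 9. Chromosomes 1 and 9 also had the fewest valid bin pairs between arms, 85323 and 78148, against at least 160323 on each other chromosome. On chromosome 16 the ratio was 0.764 in knockout cells and 1.10 in DNMT1-AID cells (log2 ratio -0.53). On chromosome 1 it was 0.832 in knockout cells and 1.11 in DNMT1-AID cells (-0.42), and on chromosome 9 it was 0.748 in knockout cells and 0.993 in DNMT1-AID cells (-0.41). The next lowest were chromosome 3, with 0.700 in knockout cells and 0.902 in DNMT1-AID cells (-0.37), and chromosome 5, with 0.796 in knockout cells and 0.985 in DNMT1-AID cells (-0.31). The gap between chromosomes 9 and 3 is close to counting error, which was at most 0.026 per chromosome, and the order depends on the range: at 10 to 40 Mb the log2 ratio was -0.50 on chromosome 16 and -0.34 on chromosome 1 but -0.057 on chromosome 9. Pooled over 20 to 50 Mb without matching, the values were -0.32 on chromosome 16, -0.19 on chromosome 1 and -0.18 on chromosome 9, and the lowest 5 were 16, 3, 2, 5 and 1, so that only 16 kept its place. Leaving out 1, 9, 16 and 8, knockout cells were lower on 10 of 14 chromosomes with a median log2 ratio of -0.14.

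Chromosome 19 had the highest value, with 0.665 in knockout cells and 0.579 in DNMT1-AID cells (0.20). It was followed by X (0.664 in knockout cells and 0.600 in DNMT1-AID cells, 0.15) and 20 (0.12). The value of chromosome 19 was -0.0058 at 10 to 40 Mb, and that of chromosome 20 was -0.062 when pooled, so these directions also turn with the setting.

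**Figure D4:**
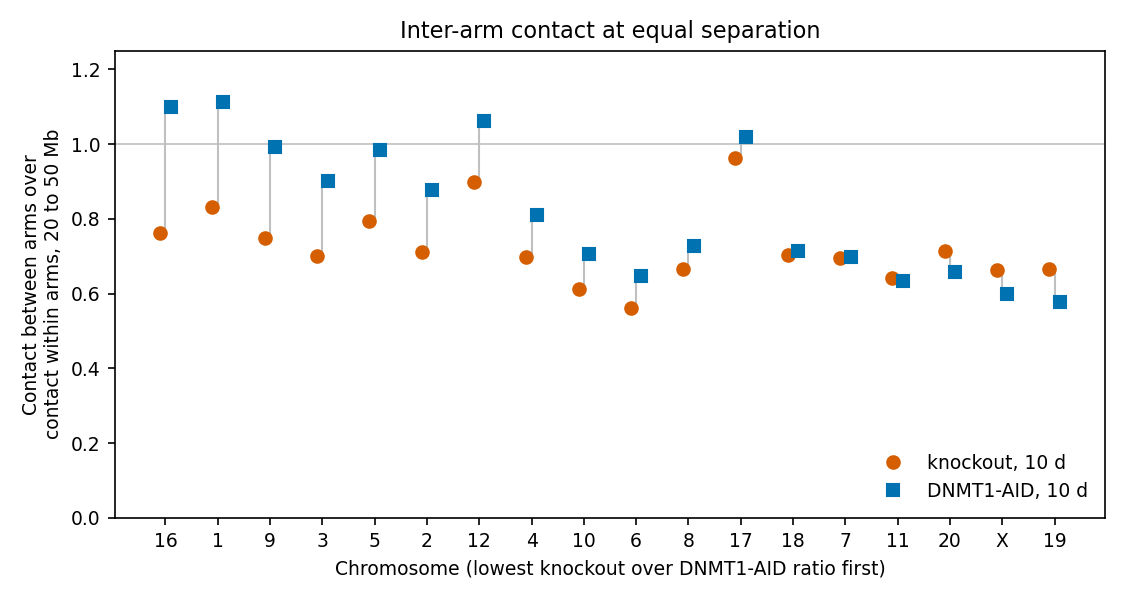
Balanced contact between arms over contact within arms at equal separation, 20 to 50 Mb (vertical axis), for 18 chromosomes ordered by the knockout over DNMT1-AID ratio; circles are knockout cells and squares DNMT1-AID cells after 10 d of auxin, 1 library each. Circles lie below squares on 14 chromosomes, and the widest gaps are on 16, 1 and 9.

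All pairs of the 23 chromosomes were compared by their mean balanced contact, each divided by the median pair of its library. By this centring 49.8% of pairs were higher in knockout cells, and 39 pairs (15.4%) were higher and 29 (11.5%) lower by 0.1 or more on the log2 scale. All 22 pairs of chromosome 8 were among the 39, with a median of 0.23 and a range between 0.12 (8 with 21) and 0.28 (6 with 8, the highest of all pairs). With raw counts divided by both chromosomes' trans totals, which takes out what all pairs of a chromosome share, the pairs of chromosome 8 had a median of 0.029, and 5.53% of all pairs were higher and 4.74% lower by 0.1 or more. Without chromosome 8, 19 of 231 pairs (8.23%) were higher and 23 (9.96%) lower by 0.1 or more.

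The small chromosomes 16, 17, 19, 20 and 22, which are rich in genes and tend to lie together in the nuclear interior, contacted each other more in knockout cells. The pair 19 with 20 had 88421 contacts in knockout cells and 80730 in DNMT1-AID cells. Relative to the median pair this was 2.70 in knockout cells and 2.25 in DNMT1-AID cells, and the centred log2 ratio was 0.27. The pair 17 with 20 lay at 2.46 in knockout cells and 2.07 in DNMT1-AID cells (0.26), and 16 with 20 at 2.06 in knockout cells and 1.74 in DNMT1-AID cells (0.25). These were the highest 3 pairs once chromosome 8 was left out, and all hold chromosome 20. Of the 10 pairs within the list, 8 were higher by 0.1 or more, with a median of 0.17, against 0 for all pairs. The 2 exceptions both hold chromosome 22, namely 17 with 22 (-0.081) and 19 with 22 (-0.0067). With raw counts over the trans totals the list's median was also 0.17 and 7 of its pairs were higher by 0.1 or more, against 14 of all pairs. The coverage of these 5 chromosomes was between 1.01-fold and 1.06-fold that of DNMT1-AID cells, and its part in the result was not tested beyond this division.

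Chromosomes 6 and 7 formed the highest pair outside that list once chromosome 8 was left out. The pair had 260356 contacts in knockout cells and 249264 in DNMT1-AID cells, and relative to the median pair it was at 0.981 in knockout cells and 0.835 in DNMT1-AID cells. The log2 ratio was 0.24, or 0.17 with raw counts over the trans totals, while the other pairs of chromosome 6 or 7, apart from those with 8, reached no more than 0.081 (6 with 22). The same pair was higher in knockout cells also at 4 d (0.22) and without auxin (0.16).

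Pairs between gene-rich and gene-poor chromosomes lay the other way. Of the 25 pairs that join the gene-rich list to the list named gene-poor (4, 5, 13, 18 and X), 18 were lower in knockout cells. Of these, 7 were lower by 0.1 or more, and the median of the 25 was -0.051. Among all pairs 49.8% were higher and 11.5% lower by 0.1 or more. The 7 include X with 16, 19 and 20, and X was lower with 21 of its 22 partners, so these pairs are not particular to gene density. With raw counts over the trans totals, 18 of the 25 were lower, 6 of them by 0.1 or more, with a median of -0.067. By genes per Mb, X (5.43) lay above chromosomes 8 (4.93) and 21 (5.11), which that list does not hold. The pair 4 with 19 had 75118 contacts in knockout cells and 94553 in DNMT1-AID cells (log2 ratio -0.17), and 20 with X, 19 with X and 4 with 20 had log2 ratios of -0.19, -0.15 and -0.14. Chromosome 18 was the exception among the gene-poor ones: 17 with 18 was higher in knockout cells, with a log2 ratio of 0.17. Within the gene-poor list 7 of 10 pairs were lower, with a median of -0.020. Beyond these lists, the log2 ratio was compared with the product of both chromosomes' A compartment shares. Over the 190 pairs with such shares and without chromosome 8, the Pearson correlation was 0.097 and the Spearman correlation 0.097.

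By balanced values, chromosomes X and 14 had lower contact with nearly every partner. Each was lower in knockout cells in 21 of its 22 pairs, and the 1 higher pair was in both cases that with chromosome 8. The median was -0.058 for the pairs of X and -0.083 for those of 14. The lowest pair of all, 14 with 22, had 38590 contacts in knockout cells and 47194 in DNMT1-AID cells, at 1.28 times the median pair in knockout cells and 1.46 times in DNMT1-AID cells (log2 ratio -0.19). Raw counts over the trans totals cannot check this pattern, because that division takes out what all pairs of a chromosome share. So divided, the median was 0.0020 for X with 12 of 22 pairs higher, and 0.0044 for 14 with 11 of 22 higher.

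Both chromosomes of 14 with 22 are acrocentric, the group that carries the ribosomal DNA of the nucleolus (13, 14, 15, 21 and 22). By balanced values, 8 of the 10 acrocentric pairs were lower in knockout cells, 4 of them by 0.1 or more, with a median of -0.084. Those 4 were 14 with 15, 14 with 21, 14 with 22 and 15 with 22. Among all pairs 49.8% were higher and 11.5% lower by 0.1 or more. Each pair of chromosome 14 in the list was lower, but 14 was lower with 21 of its 22 partners. The balanced counts of the list are therefore in part those of chromosome 14. The 2 higher pairs were 21 with 22 (0.067) and 15 with 21 (0.060). With raw counts over the trans totals the median was -0.048, and 8 pairs were lower, 2 of them by 0.1 or more. So divided, 4.74% of all pairs were lower by 0.1 or more. Among the 3 pairs of the satellite chromosomes, 1 with 9 was at -0.047, 1 with 16 at 0.047 and 9 with 16 at 0.000087, so that their trans contact showed no common direction beside the lower inter-arm ratios.

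**Figure D5:**
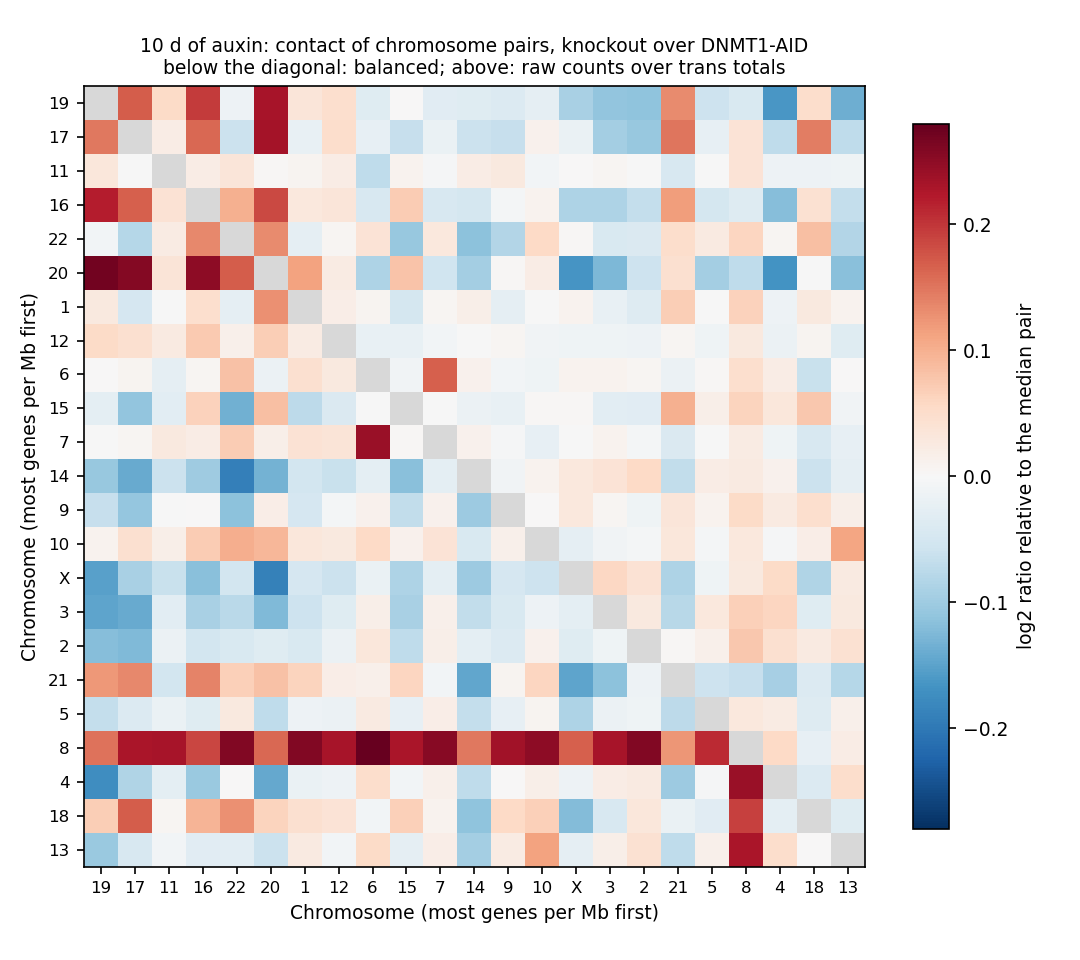
Log2 ratio of contact of each chromosome pair, knockout over DNMT1-AID cells after 10 d of auxin, relative to the median pair; chromosomes run on both axes in order of genes per Mb. Balanced values stand below the diagonal and raw counts over trans totals above it. The row of chromosome 8 is red below the diagonal and pale above it, and pairs among 16, 17, 19 and 20 are red in both.

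The same contrast in the other libraries of the series puts the 10 d values in context. These comparisons share no library with that at 10 d. The trans share was higher in knockout cells at each time, with a log2 ratio of 0.24 without auxin, 0.25 at 4 d and 0.16 at 10 d. The auxin effect on it, 10 d over untreated, was 0.22 in knockout cells and 0.30 in DNMT1-AID cells.

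The excess at 50 Mb and over was 0.072 without auxin, 0.63 at 4 d and 0.51 at 10 d. Without auxin 17 of 20 arms were higher in that window, and the pooled sign turned between the steps from 50.1 and 63.1 Mb. In the last step, from 125.9 Mb, the log2 ratio was 0.39 without auxin, 0.94 at 4 d and 0.98 at 10 d. The auxin effect at 10 d on the share at 50 Mb and over was 0.78 in knockout cells and 0.34 in DNMT1-AID cells. The share at 10 to 20 Mb was lower in knockout cells at each time, with -0.29 without auxin, -0.13 at 4 d and -0.19 at 10 d. At 1 to 2 Mb the excess was 0.045 without auxin and 0.12 at 10 d, but at 4 d the value was -0.016.

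The log2 ratio of the inter-arm ratio was 0.0044 without auxin, -0.19 at 4 d and -0.16 at 10 d. On chromosome 16 the values were -0.069 without auxin, -0.43 at 4 d and -0.53 at 10 d. On chromosome 1 they were -0.16, -0.42 and -0.42, and on chromosome 9 they were -0.025, -0.51 and -0.41 at the same times. Chromosomes outside the satellite list took a like course, with -0.21, -0.44 and -0.37 on chromosome 3 and -0.14, -0.39 and -0.31 on chromosome 5. Of the 18 chromosomes, 10 were lower in knockout cells without auxin, 16 at 4 d and 14 at 10 d. The lowest 5 at 4 d were 9, 3, 16, 1 and 5.

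Among pairs, by balanced values, the median of the gene-rich list was 0.010 without auxin, 0.050 at 4 d and 0.17 at 10 d. That of the acrocentric list was -0.21, -0.092 and -0.084. With raw counts over the trans totals the medians were 0.056, 0.087 and 0.17 for the gene-rich list and -0.093, -0.043 and -0.048 for the acrocentric list. The size of the change with time thus depends on the processing. For the 25 pairs joining the gene-rich to the gene-poor list the median was -0.042 without auxin, -0.036 at 4 d and -0.051 at 10 d. Of these 25 pairs, 18, 15 and 18 were lower in knockout cells at the same times. The pairs of X had a median of 0.036 without auxin, with 16 of 22 higher in knockout cells, 0.0063 at 4 d and -0.058 at 10 d. Over the 231 pairs without chromosome 8, the Pearson correlation of the pair values at 10 d with those at 4 d was 0.73 and with those without auxin 0.37. The points share chromosomes and their base composition, and any further difference between the 2 lines is common to the 3 times.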

How the data were processed

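Per the submitters' processing notes the authors used BWA and the hg38 build. Its version, the filters on read pairs and the balancing program were not given in the sources used here. Deposited tables give, per the file headers, raw contact counts, summed balanced signal and how many bin pairs were valid, at 50 kb, by separation for arms and whole chromosomes and once for each chromosome pair. Balancing by the authors gives every bin the same total signal, so it does not restore single pairs of a chromosome with extra coverage.

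Chromosomes 1 to 22 and X were used, with 41 arms that held at least 1000 counts in each of the 7 libraries. Shares and their Clopper-Pearson intervals come from counts. Exponents (20 log-spaced bins), inter-arm ratios (at least 10000 valid bin pairs of each kind, each separation weighted alike in both) and pair contact come from balanced sums. PCR copies are not told apart here, so the intervals cover counting error only. Genes per Mb come from the RefSeq table of GRCh38.p14, and A compartment shares from the authors' clusters of the untreated DNMT1-AID library, which hold no bin of chromosomes 13 and X. Python 3.11.15, numpy 2.4.6, pandas 2.3.3 and scipy 1.17.1 were used, and the functions were tested on simulated tables.

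With 1 library per group no test was run. Named arms and chromosomes are the 5 highest and 5 lowest by each measure, and named pairs the 8 highest and 8 lowest, with and without chromosome 8, beside the lists of chromosomes. The members, lists and measures were chosen with earlier results of these data known. The minimum of 1000 counts per arm and window, the boundary at 50 Mb, the share of contacts between arms over all separations, the sets of pairs joining 2 lists or holding chromosome 8, 14 or X, and values named outside these rules were chosen after seeing the data.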

Additional observations from a re-analysis of the deposited data

Results flagged for a closer look

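Between the times, 13 values of knockout over DNMT1-AID cells had opposite signs at 10 d and at another time. With 1 library per group these differences between times were not tested, and several values lie close to 0.

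All are log2 ratios. The share at 10 Mb and over was 0.031 at 4 d and -0.029 at 10 d, and the share under 1 Mb was 0.080 without auxin, 0.013 at 4 d and -0.0071 at 10 d. Among the windows, that of 0.1 to 0.5 Mb was 0.075 without auxin, 0.024 at 4 d and -0.032 at 10 d. That of 0.5 to 1 Mb was -0.020 at 4 d and 0.072 at 10 d, and that of 1 to 2 Mb was -0.016 at 4 d and 0.12 at 10 d. That of 2 to 5 Mb was -0.071 without auxin, -0.034 at 4 d and 0.048 at 10 d, and that of 20 to 50 Mb was 0.076 at 4 d and -0.0096 at 10 d. The inter-arm ratio was 0.0044 without auxin and -0.16 at 10 d. Contact within the gene-rich list over that of other pairs was -0.0095 without auxin and 0.13 at 10 d, and contact within the satellite list 0.0061 without auxin and -0.022 at 10 d.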

How the results depend on the processing

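No paired analysis was possible because each group holds 1 library. Over 52 alternatives for 19 results, 6 turned the direction, 36 moved the value by more than its counting interval or by over 1.5 times for counts, and 10 did not; of the 19 without chromosome 8, 0 turned it. All values are log2 ratios of knockout over DNMT1-AID cells unless said. The share at 10 Mb and over (-0.029) turned to 0.093 with the boundary at 20 Mb and to 0.51 at 50 Mb, as the profile by separation shows, and was -0.039 with balanced sums. The share under 1 Mb (-0.0071) turned to 0.0074 from 200 kb on, and was -0.0078 without chromosome 8 and -0.0046 balanced. The difference in exponent (-0.025) turned to 0.069 at 5 to 50 Mb, and was -0.023 without chromosome 8 and -0.021 from raw counts. The trans share (0.16) was 0.14 without chromosome 8, 0.15 balanced and 0.11 with cis contacts from 500 kb on. The inter-arm ratio (-0.16) was -0.17 without chromosome 8, -0.12 at 10 to 40 Mb and -0.11 pooled over separations. Of the windows, without chromosome 8 that of 0.5 to 1 Mb was 0.070, of 2 to 5 Mb 0.050, of 5 to 10 Mb -0.10 and of 50 Mb and over 0.51; balanced, those of 0.1 to 0.5, 0.5 to 1, 1 to 2, 10 to 20 and 20 to 50 Mb were -0.032, 0.079, 0.13, -0.20 and -0.023. Pairs higher by 0.1 or more (39) numbered 19 without chromosome 8 and 14 with raw counts over trans totals, with or without chromosome 8. Pairs lower (29) numbered 12 with raw counts over trans totals, 14 so without chromosome 8, and 4 at a threshold of 0.15. Contact within the lists over other pairs follows, with raw counts over trans totals, as the median of pairs and without chromosome 8 in that order. For the gene-rich list (0.13) it was 0.13, 0.24 and 0.15, for the acrocentric list (-0.088) -0.037, -0.17 and -0.071, for the gene-poor list (-0.046) -0.0083, 0.023 and -0.029, and for the satellite list (-0.022) -0.0056, 0.043 and -0.0049. The gene-poor and satellite values thus turned with the median, and the cause was not tested. Depth limits little here, since counting error is small beside these differences, whereas the spread between cultures is unknown.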
